A study of Caenorhabditis elegans with 2 samples.

Results

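Single-gene promoter peaks are UNC-55 ChIP-seq peaks that lie in the promoter window of exactly 1 protein-coding gene. The window of a gene covered the 1000 bp before and the 200 bp after each of its annotated transcript starts. A peak was placed by its summit, the position of highest enrichment that the authors' peak caller reported. Of the 2511 peaks in the authors' optimal IDR set (IDR, irreproducible discovery rate, a measure of how well peak ranks repeat), 939 were single-gene promoter peaks, or 37.4% (95% Wilson interval 35.5 to 39.3%). A further 286 summits lay in the windows of more than 1 gene and are called shared here: 268 lay in 2 windows, 17 in 3 and 1 in 4. The other 1286 peaks lay outside every window. Thus 76.7% of the 1225 promoter peaks could be assigned by position to 1 protein-coding gene. When windows of genes of any biotype were counted, 708 summits lay in the window of a protein-coding gene and of no other gene.

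The peaks come from 2 biological replicates of whole late embryos of the Caenorhabditis elegans strain NC1639 of both sexes, which form 1 group with no second condition. The strain carries the integrated array wdIs49 on chromosome III, written pttr39::UNC-55a::GFP; dpy-20+ in the labels, so the ttr-39 promoter drives UNC-55a fused to GFP and dpy-20 is carried along. A note in the labels gives the tag as GFP with FLAG, and the antibody is named only as unc-55. The labels do not give the embryonic cells that held the fusion protein, and the control library was not analysed here. No single-gene promoter peak lay at unc-55, ttr-39 or dpy-20.

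UNC-55 belongs to the COUP-TF nuclear receptors. In the VD motor neurons, which release GABA, it keeps the synapses from being moved to the other side of the body as they are in the DD neurons. COUP-TF receptors bind DNA through repeats of the hexamer AGGTCA. Promoters of neighbouring nematode genes often lie close together and face away from each other, so a summit between such genes cannot be assigned to either by position alone.

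The stretches of sequence at the summits differed in what they held. The 4 strongest single-gene peaks that overlapped a region of each replicate's own list, lay outside annotated exons and could be printed were those of ceh-20, Y43F8B.2, zfp-1 and tlp-1. The first 4 sequences are shown for their strength, and those of C47A4.1 and ttr-29 because they were the strongest exon-free ones that held AGGTCA within 50 bp of the summit. Each stretch runs 50 bp to either side of the summit, taken from the WBcel235 assembly in RefSeq and written 5′ to 3′ on the strand of the gene. Capitals mark GAGAGA and its reverse complement TCTCTC, also ACGCAG and its reverse complement CTGCGT, also AGGTCA and its reverse complement TGACCT, and also TGACAG and its reverse complement CTGTCA. A match is a description of the letters, not a binding site.
ceh-20: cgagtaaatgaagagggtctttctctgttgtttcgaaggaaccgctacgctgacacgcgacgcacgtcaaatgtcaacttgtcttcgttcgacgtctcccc
Y43F8B.2: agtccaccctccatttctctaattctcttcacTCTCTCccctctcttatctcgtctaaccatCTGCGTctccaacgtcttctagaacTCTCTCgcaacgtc
zfp-1: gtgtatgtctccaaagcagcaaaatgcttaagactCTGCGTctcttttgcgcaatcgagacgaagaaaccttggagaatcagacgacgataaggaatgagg
tlp-1: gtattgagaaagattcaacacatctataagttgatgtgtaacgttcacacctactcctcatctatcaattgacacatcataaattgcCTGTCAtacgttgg
C47A4.1: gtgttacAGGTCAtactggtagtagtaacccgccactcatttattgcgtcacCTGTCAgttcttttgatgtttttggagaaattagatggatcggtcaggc
ttr-29: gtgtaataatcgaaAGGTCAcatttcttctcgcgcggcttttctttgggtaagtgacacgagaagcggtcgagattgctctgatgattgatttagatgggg

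In WBcel235 the ceh-20 stretch lies at chrIII:6979088-6979188 on the plus strand, between genes, and held none of the 4 hexamers. Within 100 bp of its summit, the distance used for the shares below, ceh-20 did hold AGGTCA, on the strand of the gene. The Y43F8B.2 stretch lies at chrV:19522879-19522979 on the minus strand, in an intron of the gene, and held TCTCTC in 2 places and CTGCGT in 1. The zfp-1 stretch lies at chrIII:8802073-8802173 on the plus strand, in an intron of the gene, and held CTGCGT. The tlp-1 stretch lies at chrIV:13704180-13704280 on the minus strand, between genes, and held CTGTCA. Within 100 bp of their summits, zfp-1 and tlp-1 also held GAGAGA or its reverse complement. The C47A4.1 stretch lies at chrIV:13716893-13716993 on the minus strand and held AGGTCA and CTGTCA, and the ttr-29 stretch at chrV:12907583-12907683 on the minus strand held AGGTCA.

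The 2 strongest single-gene peaks lay at genes for homeodomain partners. Signal values, given by the authors' caller against a control, are not scaled between lists, so they rank regions only within a list. The summit at unc-62, which encodes the Meis-type homeodomain factor of the worm, had a signal of 227 in the IDR set, and its region overlapped regions of signal 12.8 in replicate 1, rank 12 of 3577, and of signal 214 in replicate 2, rank 5 of 30000. It lay at position 4499519 of chromosome V, 31 bp inside the gene in its 5′ UTR. The ceh-20 summit, 746 bp upstream of the start of a gene for a Pbx-type homeodomain factor, had 225 in the IDR set, with 13.5 in replicate 1 (rank 11) and 218.5 in replicate 2 (rank 4). Both were therefore near the top of every list. The summit of Y43F8B.2 had 199.8 in the IDR set, 192 in replicate 2 (rank 7) and 3.77 in replicate 1 (rank 784), so the replicates placed it far apart. That of zfp-1, which encodes a chromatin protein related to AF10, had 131 in the IDR set, 126 in replicate 2 (rank 13) and 2.14 in replicate 1 (rank 3332). That of tlp-1, a zinc finger gene of tail development, had 123 in the IDR set, 119 in replicate 2 (rank 17) and 14.2 in replicate 1 (rank 8), and so ranked high in both.

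Among the other strongest summits, mmad-1 (120.3) and ost-1 (111) overlapped no region of replicate 1, at ranks 16 and 25 of replicate 2. ost-1 encodes SPARC, a basement membrane protein. sir-2.2, a gene for a mitochondrial sirtuin, had 114 with ranks of 767 in replicate 1 and 27 in replicate 2. igcm-4 had 114 with ranks of 22 and 36, Y18D10A.4 had 107 with ranks of 195 and 34, and vps-25, which encodes an ESCRT-II subunit, had 106 with ranks of 147 and 37, each for replicates 1 and 2 in that order. The best ranked single-gene peak in replicate 1 was that of rnst-2, a ribonuclease T2 gene, at rank 7 (signal 14.7), followed by tlp-1 at rank 8 and unc-115 at rank 9. In replicate 2 the rnst-2 and unc-115 summits ranked 210 and 131. The top of the single-gene set thus held peaks that stood high in both replicates and peaks that stood high in replicate 2 alone.

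Replicate 1 overlapped only part of the set. Its list overlapped 291 of the 939 single-gene peaks by at least 1 bp, or 31.0% (28.1 to 34.0%), against 30.7% of all 2511 IDR peaks. Among shared promoter peaks it overlapped 76 of 286, or 26.6% (21.8 to 32.0%). The difference of 4.42 percentage points had a 95% Newcombe interval of -1.71 to 10.1, so single-gene and shared peaks were not told apart by it. Replicate 2's list overlapped all 939, and 285 of the 286 shared peaks. That list of 30000 regions overlapped 2510 of the 2511 IDR peaks, so overlap with it does not tell peaks apart. Both replicate lists were deposited as peaks and background for IDR input, so an overlap can be with a weak region. The regions of replicate 1 at these overlaps had signals of 2.02 to 14.7, with a median of 3.74. Of the 291 peaks overlapped in both replicates, 33 lay among the top 100 regions of replicate 1, and 33 of all members lay among the top 100 of replicate 2. Spearman's rho between the signals of replicates 1 and 2 was 0.210 over these 291 peaks, which share an input to the pooled list, and it is given as a description. Intervals here and below cover counting error over peaks or genes, not the spread between cultures.

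Signal values of single-gene peaks ran from 23.8 to 227 with a median of 33.8 and quartiles of 27.8 and 44.9, beside a median of 34.4 for shared promoter peaks and 35.1 for all other IDR peaks. Of single-gene peaks, 47.1% lay in the stronger part of the IDR ranks when these are split at the middle, against 51.7% of all other IDR peaks, a difference of -4.65 points (-8.66 to -0.605). Overlap with replicate 1 went down with signal: it held for 94 of the 188 strongest members (median signal 62.9), then for 34.0%, 28.9% and 22.3% in the next 3 groups of that size or 1 fewer, and 19.7% in the 188 weakest (median 25.2). The weaker members were therefore overlapped by replicate 1 least often. The IDR set was derived from both replicates, so its signal and this overlap share an input, and the trend is a description.

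**Figure D1:**
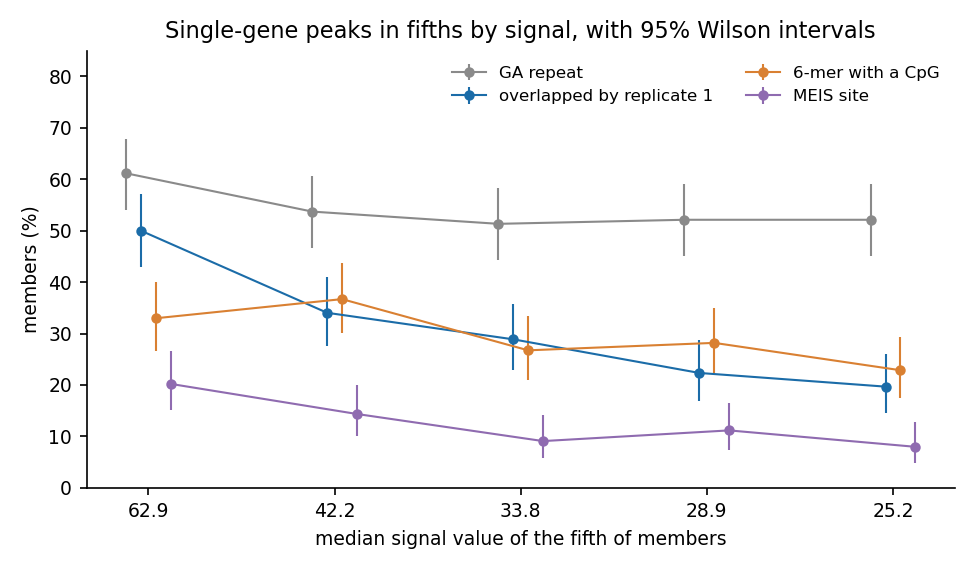
Single-gene promoter peaks in 5 groups by signal value (x axis, median signal of each group, strongest at the left) against the percentage overlapped by replicate 1 or holding each hexamer within 100 bp (y axis), with 95% Wilson intervals. GA repeat stands for GAGAGA, 6-mer with a CpG for ACGCAG and MEIS site for TGACAG; overlap with replicate 1 held for 94 of 188 at the left and 19.7% at the right, and TGACAG for 20.2% and 7.98%.

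Within the window that chose them, summits lay mostly upstream and near the start. The median position was -266 bp from the nearest transcript start of the gene, with quartiles of -531 and -119.5 bp and a range of -998 to 194 bp. Of the 939, 120 lay from -1000 to -751 bp, 133 from -750 to -501, 233 from -500 to -251, 241 from -250 to -101, 145 from -100 to -1 and 67 from 0 to 200. By the annotation, 679 (72.3%) lay between genes, 151 in an intron of the gene, 57 in its 5′ UTR and 9 in its coding exons, while 30 lay in an intron and 13 in an exon of another gene. The window is part of the rule, so these positions describe the set. The members just inside its edges were pigl-1 at -998 bp (signal 49.3), F53C3.6 at -986 bp (28.3), and dct-1 and M60.4 at 194 bp (25.5 and 30.9). Just outside lay summits near sdz-21 and dapk-1 at -1001 bp (32.1 and 40.7), tlk-1 at 226 bp (49.4) and pyk-1 at 228 bp (42.2), with signals like those inside.

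**Figure D2:**
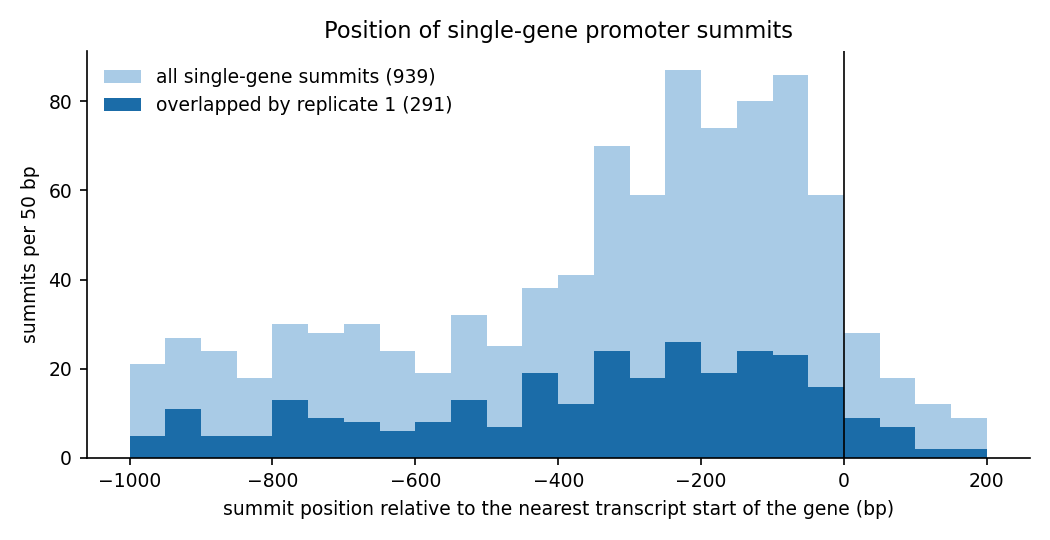
Number of single-gene summits per 50 bp (y axis) by position relative to the nearest transcript start of their gene (x axis, bp, negative is upstream). Light bars are all 939 summits and dark bars the 291 overlapped by replicate 1, which are spread over the same range with a median of -300 bp against -245 bp for the 648 that replicate 1 did not overlap.

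The 939 summits lay at 892 genes of the 19973 protein-coding nuclear genes, or 4.47%, while 585 genes (2.93%) had a shared summit and 11 had both. Of the 892 genes, 851 had 1 single-gene summit, 36 had 2, 4 had 3 and 1 had 4. The gene with 4 was unc-62, and its other summits had signals of 113, 76.1 and 29.9, at -60, 120 and -376 bp from a start. The genes with 3 were drap-1, madd-3, mnk-1, which encodes a kinase acting on the translation factor eIF4E, and hlh-30, which encodes the TFEB-type bHLH factor of autophagy. The strongest summit of drap-1 had a signal of 79.7, of mnk-1 67.9, of madd-3 54.1 and of hlh-30 42.3, and no hlh-30 summit overlapped replicate 1. Genes with many starts have more window in which a summit can fall: genes with a single-gene summit had a median of 2 annotated starts, and all protein-coding genes 1.

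The genes with single-gene summits stood in longer intergenic regions than protein-coding genes at large. The median distance to the upstream neighbour was 2061 bp over the 855 such genes with a neighbour that did not overlap, against 1061 bp over 18596 of all genes. Their median span was 3727 bp, against 2027 bp. The upstream neighbour lay on the same strand for 56.4% of the 892 genes (53.1 to 59.6%), against 50.9% of all genes, and on the opposite strand for 39.5%, against 42.2%. The rule favours this layout, because a close neighbour on the opposite strand turns a summit into a shared one. Even so, 237 members (25.2%) had an upstream neighbour less than 1000 bp away.

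Single-gene and shared summits also differed in how densely they filled their windows. Sequence in exactly 1 gene's window made up 23.5 Mb, or 23.4% of the nuclear genome, and sequence in more than 1 made up 2.70 Mb, or 2.69%. Single-gene summits numbered 39.95 per Mb of their sequence, and shared summits 106 per Mb of theirs. In the authors' pooled list of 30000 regions, which goes far below the IDR set, the share of single-gene summits was 37.4% among ranks 1 to 2511, 36.3% for ranks 2512 to 5000, 34.0% for ranks 5001 to 10000, 28.7% for ranks 10001 to 20000 and 26.3% for ranks 20001 to 30000. The shared share was 11.4%, 11.5%, 7.46%, 3.96% and 2.90% over the same ranks. Both shares thus went down toward the weak end, where they neared the parts of the genome that the windows cover.

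The X chromosome held more single-gene peaks for its genes than the autosomes did. It carried 222 of the 939, or 23.6% (21.0 to 26.5%), against 17 of the 286 shared peaks, or 5.94% (3.74 to 9.31%), a difference of 17.7 points (13.4 to 21.3). Among X-linked genes, 211 of 2731 (7.73%, 6.78 to 8.79%) had a single-gene summit, against 681 of 17242 autosomal genes (3.95%, 3.67 to 4.25%). A shared summit was held by 1.28% of X-linked genes and 3.19% of autosomal genes. The X also has less shared window: 4.50% of its window sequence lay in more than 1 window, against 11.3% on the autosomes. Per Mb of single-gene window, X had 60.1 summits and the autosomes 36.2, between 25.6 on V and 50.6 on I. Per Mb of shared window, X had 97.7 and the autosomes 106.5. Replicate 1 overlapped 32.9% of the X-linked members and between 22.2% (chromosome V) and 34.5% (chromosome I) of those on each autosome. Of peaks outside genes and windows, 23.2% (20.4 to 26.3%) lay on X, close to the single-gene share.

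**Figure D3:**
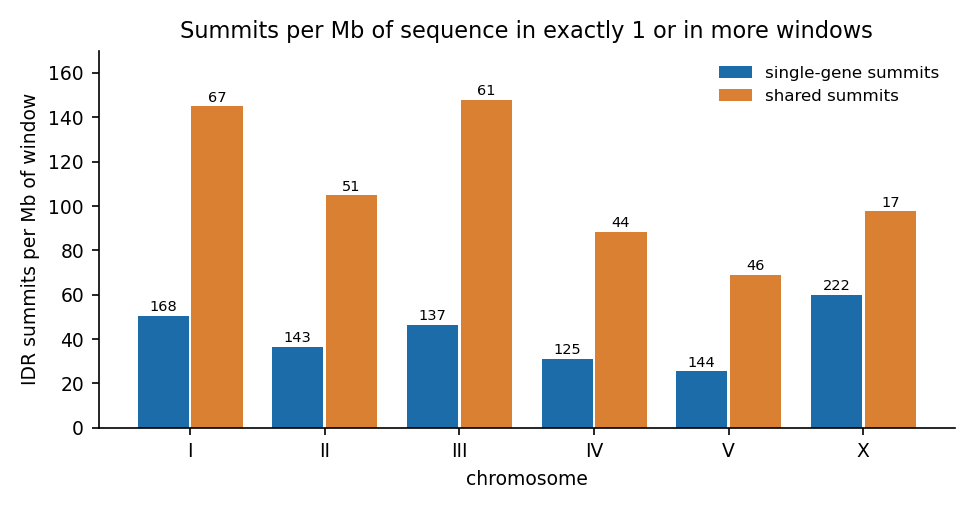
IDR summits per Mb of window sequence (y axis) on each chromosome, with single-gene summits (blue, over sequence in exactly 1 gene's window) left of shared summits (orange, over sequence in more than 1). Numbers above the bars count summits; the single-gene bar is tallest on X, at 60.1 per Mb, and lowest on V, at 25.6.

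Hexamers were searched within 100 bp of each summit on either strand, and set beside 18507 promoters without an IDR summit, each represented by 1 window of the same length at the members' median position. GAGAGA was held by 508 of the 939 single-gene windows, or 54.1% (50.9 to 57.3%), against 35.0% (29.7 to 40.7%) of shared windows and 11.6% (11.2 to 12.1%) of promoters without a summit. The single-gene share exceeded the shared one by 19.1 points (12.6 to 25.3). Intronic peaks (53.5%) and peaks outside genes and windows (54.3%) were close to the single-gene value, while the 34 exonic peaks had 35.3% (21.5 to 52.1%), close to the shared one. In replicate 1's list alone, where the 2497 nuclear regions among the top 2511 gave 758 single-gene summits, GAGAGA was in 26.5% (23.5 to 29.8%), and the difference from shared ones was -0.102 points (-8.56 to 7.30). In replicate 2's list alone the values were 55.05% and 20.6 points (14.1 to 26.7). Among IDR peaks that replicate 1 overlapped, single-gene peaks exceeded shared ones by 18.9 points (6.26 to 30.4). The difference was 12.6 points when windows of 2000 bp upstream and 500 bp downstream or windows of genes of any biotype were used, and 12.8 points within 50 bp of the summit, each with an interval above 0.

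Position, chromosome and base composition were set beside this difference. With the nearest start 1 to 250 bp downstream of the summit, GAGAGA was in 56.0% of single-gene and 34.0% of shared windows, a difference of 21.9 points (13.3 to 30.0). On autosomes the shares were 54.0% and 36.4% (difference 17.5 points, 10.6 to 24.2). The GC content of the windows was 44.9% ± 6.46 (SD, 939 windows) at single-gene summits, 43.3% ± 6.55 (286 windows) at shared summits and 34.2% ± 6.52 (18507 windows) at promoters without a summit. In windows under 40% GC, GAGAGA was in 39.6% of single-gene, 24.5% of shared and 9.86% of unbound windows. From 40% to under 50% GC the shares were 57.4%, 38.9% and 19.5%, and from 50% GC 62.8%, 44.2% and 23.2%. The order of the 3 classes was the same in each GC range, but no difference was computed within a range. From 50% GC there were only 43 shared windows (30.4 to 58.9%), beside 199 single-gene windows (55.9 to 69.2%). Among members, GAGAGA was in 42.6% (36.5 to 49.0%) of those with an upstream neighbour under 1000 bp away and in 57.7% (54.0 to 61.4%) of those with one farther off.

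ACGCAG, the other hexamer common at these summits, did not separate single-gene from shared peaks. It was in 29.5% (26.7 to 32.5%) of single-gene and 31.1% (26.0 to 36.7%) of shared windows, a difference of -1.62 points (-7.88 to 4.28), and in 4.59% of promoters without a summit. Under 40% GC, ACGCAG was in 23.0% of single-gene and 3.36% of unbound windows. From 40% to under 50% GC the shares were 29.3% and 9.70%, and from 50% GC 37.7% and 16.0%. In replicate 1's list alone it was in 10.7% of single-gene windows. Of the IDR members, those overlapped by replicate 1 held it in 35.1% (29.8 to 40.7%) and the rest in 27.0% (23.7 to 30.6%). Both hexamers were in 19.0% of single-gene, 13.6% of shared and 1.10% of unbound windows, and neither was in 35.4%, 47.6% and 84.9%. The nearest GAGAGA lay a median of 33 bp from the summit and the nearest ACGCAG 35 bp. Alternating GA or TC runs of at least 10 bases were in 7.24% of single-gene, 2.80% of shared and 0.686% of unbound windows. Runs of at least 20 bases were in 12 single-gene windows (1.28%) and 0 of the 286 shared ones, with an upper Wilson bound of 1.33%.

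The strand of the repeat was uneven, at summits and at promoters without one. Of the 450 members with GAGAGA on 1 strand only, 306 (68.0%, 63.6 to 72.1%) read TCTCTC on the strand of the gene and 144 read GAGAGA there. The share was between 60.9% and 73.0% in each of the 6 position groups. Promoters without a summit showed a like split, with 1337 reading TCTCTC on the gene's strand and 747 reading GAGAGA. The hexamer ACGCAG read as CTGCGT on the gene's strand in 164 of 266 members with 1 strand only (61.7%, 55.7 to 67.3%), and promoters without a summit again leaned the same way, with 480 reading CTGCGT there and 345 reading ACGCAG. For AGGTCA, 31 members held it on the gene's strand and 28 on the other, while 393 promoters without a summit held it on the gene's strand and 564 on the other.

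AGGTCA, the COUP-TF hexamer, differed between single-gene and other windows by no more than counting error. It was in 59 of 939 windows, or 6.28% (4.90 to 8.02%), against 6.64% (4.29 to 10.1%) of shared windows and 5.28% (4.97 to 5.62%) of promoters without a summit. The nearest copy lay a median of 49 bp from the summit, and members holding it were overlapped by replicate 1 in 27.1% (17.4 to 39.6%). TGACAG, a hexamer bound by Meis-type factors, was in 12.6% (10.6 to 14.8%) of single-gene, 9.09% (6.28 to 13.0%) of shared and 6.31% of unbound windows, and in 18.9% of intronic peaks. Its share was 20.2% (15.1 to 26.5%) in the 188 strongest members and 7.98% (4.90 to 12.8%) in the 188 weakest. GATAAG, the core of GATA factor sites, was in 8.31% (6.71 to 10.3%) of single-gene and 2.45% (1.19 to 4.97%) of shared windows, a difference of 5.86 points (2.88 to 8.17), while promoters without a summit had 8.76%. TATAAA was in 11.1% of single-gene, 14.7% of shared and 24.6% of unbound windows, and TAATCC in 3.09%, 2.80% and 6.57%. TATAAA and TAATCC contain only or mostly A and T, and GC content differed between bound and unbound windows as given above.

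**Figure D4:**
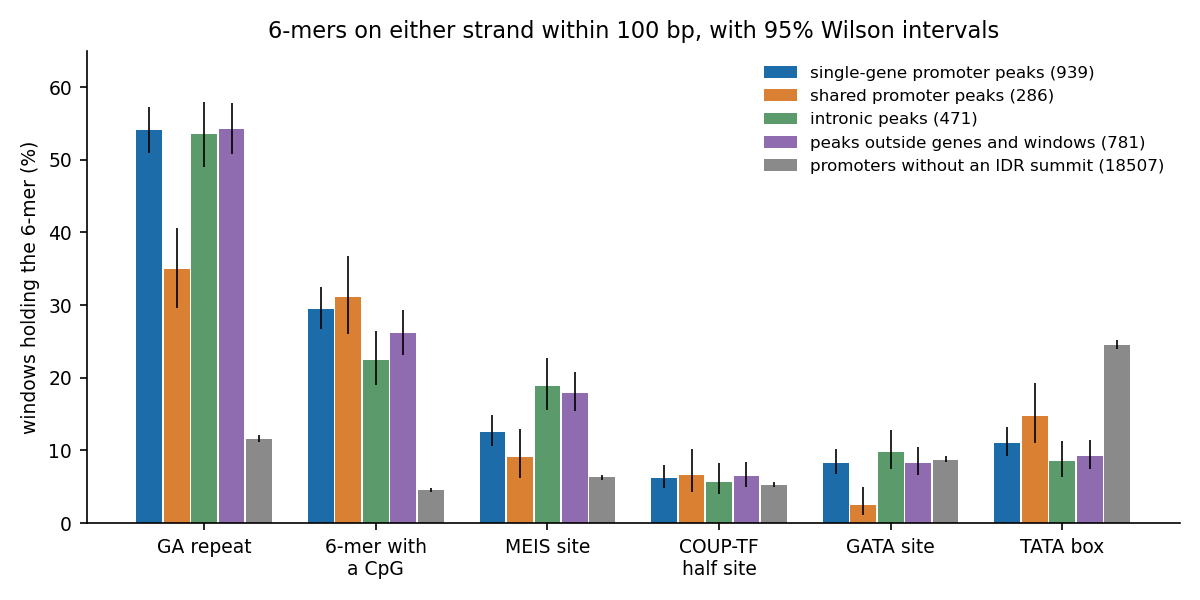
Percentage of windows, 100 bp to either side of the summit, that hold each hexamer on either strand (y axis), for single-gene promoter peaks, shared promoter peaks, intronic peaks, peaks outside genes and windows, and promoters without an IDR summit (bars from left to right), with 95% Wilson intervals. GA repeat stands for GAGAGA and 6-mer with a CpG for ACGCAG, and the MEIS, COUP-TF, GATA and TATA labels for the hexamers named above; single-gene peaks held GAGAGA in 54.1% and shared peaks in 35.0%, while AGGTCA was between 5.28% and 6.64% in these classes.

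Non-coding genes near the summit were as frequent for single-gene as for shared peaks. Within 500 bp, 24.0% of single-gene summits, 22.0% of shared summits and 14.9% of the windows without a summit had a non-coding RNA gene or pseudogene, and 30.7% of all other IDR summits did. A snoRNA gene lay within 500 bp of 21 members (2.24%) and of 0.367% of windows without a summit, and a tRNA gene near 11 members (1.17%) and 0.497% of such windows. Assignment of these summits to the protein-coding gene rests on position alone.

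Gene groups split in which kind of summit they had. By the rule, the kind depends on how near the windows of other genes lie. Spacing and window size were not compared between lists, so layout and binding cannot be told apart here. The 32 gene lists were set beside the background of 4.47% of all genes with a single-gene summit and 2.93% with a shared one. Of all members, replicate 1 overlapped 31.0%, 54.1% held GAGAGA, 29.5% held ACGCAG and 23.6% lay on X. The pan-neuronal and synaptic list had the highest share with a single-gene summit, 10 of 30 genes (33.3%, 19.2 to 51.2%), and 0 of 30 with a shared one. Its strongest summits were at unc-16 (signal 64.5, 25 bp upstream), which encodes a JIP3-type transport adaptor, and unc-76 (62.8, 344 bp upstream), a FEZ-type axonal protein. Next came unc-108, the Rab2 of dense core vesicle maturation (51.5, 537 bp upstream of its nearest start, in an intron of the gene). In replicate 1 these 3 ranked 84, 476 and 756, and in replicate 2 they ranked 277, 370 and 531. Replicate 1 overlapped 7 of the 10, and 8 of the 10 held GAGAGA. The median signal of the 10 was 37.8, beside 33.8 for all members.

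Muscle genes had the next highest share. In the actin and sarcomere list 17 of 54 genes (31.5%, 20.7 to 44.7%) had a single-gene summit and 4 (7.41%) a shared one. The strongest were at unc-112, the kindlin of muscle attachments (78.3, 433 bp upstream), ttn-1, a titin (54.0, 162 bp upstream), and pat-3, a beta integrin (47.8, 901 bp upstream). Replicate 1 overlapped 3 of the 18 summits at these genes, among them that of unc-112 at rank 2377, and its list had no region at the summits of ttn-1 and pat-3, which ranked 287 and 530 in replicate 2. Of the 18 summits, 11 held GAGAGA and 0 held ACGCAG, beside 54.1% and 29.5% of all members. hlh-1, the gene for the MyoD-type factor of body wall muscle, had a summit of signal 75.8 at 96 bp upstream, rank 112 in replicate 2, that did not overlap replicate 1. The bHLH list had 4 of 37 genes with a single-gene summit (10.8%, 4.29 to 24.7%), the others being hif-1 (42.5), hlh-30 (42.3) and hlh-11 (32.0), and 0 of their 6 summits overlapped replicate 1. The basement membrane list had 4 of 18 (22.2%, 9.0 to 45.2%): ost-1, let-2, a type IV collagen (73.6), mig-17, an ADAMTS protease (30.4), and mig-6, a papilin (24.3). That let-2 summit overlapped replicate 1 at rank 1200, while a second let-2 summit (27.1) and the other 3 genes had no overlap. Replicate 1 thus overlapped 1 of the 6 summits of this list.

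Genes of Wnt signalling and axon guidance also had single-gene summits. In the Wnt list 8 of 28 genes (28.6%, 15.3 to 47.1%) had a single-gene summit and 1 a shared one. They included cwn-1, a Wnt ligand (62.6, 484 bp upstream), pry-1, the Axin scaffold (60.0, 514 bp upstream), and lit-1, the Nemo-like kinase, with summits of 42.5 and 30.0. None of these 4 summits overlapped replicate 1, which overlapped 2 of the 10 in the list. In the axon guidance list 7 of 29 genes (24.1%, 12.2 to 42.1%) had a single-gene summit and 1 a shared one. unc-115, which encodes an actin-binding protein of the abLIM kind, had the strongest (80.1, 47 bp upstream), with ranks of 9 in replicate 1 and 131 in replicate 2. unc-73, a Trio-type exchange factor, had 45.4 with ranks of 226 and 729, and mig-10, the lamellipodin, had 36.2 with no overlap in replicate 1. Replicate 1 overlapped 4 of the 8 summits of this list. In the TGF-beta list 1 of 21 genes had a single-gene summit, the Ski-type gene daf-5 (24.3), and in the Notch and EGF list 1 of 21, the ADAM10-type gene sup-17 (31.2). Both signals were below the median of all members, 33.8.

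In the list of D neuron remodelling, the process in which UNC-55 is known to act, 3 of 15 genes (20%, 7.05 to 45.2%) had a single-gene summit and 1 a shared one. They were pde-4, a cAMP phosphodiesterase (37.5, 175 bp upstream), myrf-2 (31.9, 95 bp upstream) and myrf-1 (26.1, 423 bp upstream), which encode membrane-bound transcription factors. These distances are to the nearest start of the gene. The pde-4 and myrf-2 summits lay in an intron of the gene, and that of myrf-1 lay between genes. The 3 summits ranked 1011, 1280 and 2618 in replicate 2, and 0 of the 3 overlapped replicate 1. Of GABA neuron identity genes 2 of 8 did (25%, 7.15 to 59.1%): gta-1, the GABA transaminase (42.9, 318 bp upstream), and snf-11, a GABA transporter (35.9, 645 bp upstream), neither overlapped by replicate 1. With 15 and 8 genes the intervals of these lists are wide. The peaks came from whole late embryos, and the labels do not give the cells, so none can be assigned to VD or DD neurons.

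Transcription factor lists were mixed. Homeodomain genes had 7 of 93 (7.53%, 3.69 to 14.7%), close to the background in number. Replicate 1 overlapped 8 of their 11 summits, beside 31.0% of all members. By gene, replicate 1 overlapped 4 of the 7. All 4 unc-62 summits were among the 8, and 2 of them lay in the same region. Beside unc-62 and ceh-20 stood ceh-13, the labial-type Hox gene, with summits of 96.2 (ranks 14 and 56 in replicates 1 and 2) and 59.2 (ranks 361 and 738), 770 and 565 bp upstream. The median signal of the strongest summit per gene was 73.7 in this list, the highest of the lists with more than 1 such gene. Nuclear hormone receptor genes had 11 of 274 (4.02%, 2.26 to 7.05%), led by nhr-119 (83.8), nhr-1 (65.9) and nhr-35 (64.7). All 11 of their summits held GAGAGA, beside 54.1% of all members, and 5 lay on X, beside 23.6%. Forkhead, T-box, GATA and Sox genes had 0 of 51, with an upper Wilson bound of 7.01%. Chromatin regulators had 14 genes (13.9% of the list, 8.44 to 21.9%) with a single-gene and 8 with a shared summit, led by zfp-1, sir-2.2 and pbrm-1, a subunit of the SWI/SNF type remodelling complex (74.8). The list holds sir-2.2 although the sirtuin it encodes is mitochondrial, as given above. Histone genes had 4 of 81, which were the linker histone genes hil-7 (89.4) and his-24 (45.9), his-37 (69.8) and his-72, an H3.3 gene (26.8). Histone copies are near-identical, so the assignment of his-37 is uncertain.

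Housekeeping lists had both kinds of summit, and no difference between the kinds was tested within a list. Cytosolic ribosomal protein genes had 17 of 81 (21.0%, 13.5 to 31.1%) with a single-gene summit and 36 (44.4%, 34.1 to 55.3%) with a shared one. Their 17 single-gene summits lay between -431 and -139 bp, a narrower range than in any other list with at least 5 summits, and had signals of 23.9 to 62.1. rpl-3 (62.1), rpl-35 (53.7) and rpl-41.2 (46.8) were strongest, and replicate 1 overlapped 5 of the 17. Translation factor genes had 7 of 39 (17.9%) of each kind, led by eif-3.B (45.2), ife-4 (43.9) and eef-1A.2 (39.6). Chaperone genes had 6 of 59 with a single-gene and 14 with a shared summit, led by hsp-3, the BiP of the endoplasmic reticulum (66.6), and hsp-1, the cytosolic Hsp70 (63.8). Proteasome genes had 1 of 33, rpt-3 (24.0), and 8 with a shared summit. Genes of the respiratory chain and ATPases had 5 of 57 and 9, led by vha-15, a subunit of the vacuolar ATPase (74.5, rank 49 in replicate 1). Small GTPase and vesicle traffic genes had 10 of 91 and 12, splicing factor genes 4 of 51 and 7, aminoacyl-tRNA synthetase genes 2 of 31 and 3, and mitochondrial ribosomal protein genes 2 of 70 and 3. Tubulin, kinesin and dynein genes, with 6 of 42 and 2, had more single-gene than shared ones.

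Large families of the worm genome had few single-gene summits. Chemoreceptor genes had 3 of 1309 (0.229%, 0.0780 to 0.672%): srh-2 (75.9), sre-23 (35.0) and srh-171 (25.7). F-box genes had 0 of 322, cuticle collagen genes 0 of 176 and major sperm protein genes 0 of 31, with upper Wilson bounds of 1.18%, 2.14% and 11.0%. Neuropeptide genes had 1 of 140, ins-39 (24.6), C-type lectin genes 3 of 240 and P450, UGT and GST genes 4 of 185, led by ugt-50 (72.3, rank 103 in replicate 1). Neuropeptide genes thus fell on the other side of the background from the pan-neuronal list, with 0.714% (0.126 to 3.94%) against 33.3%.

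**Figure D5:**
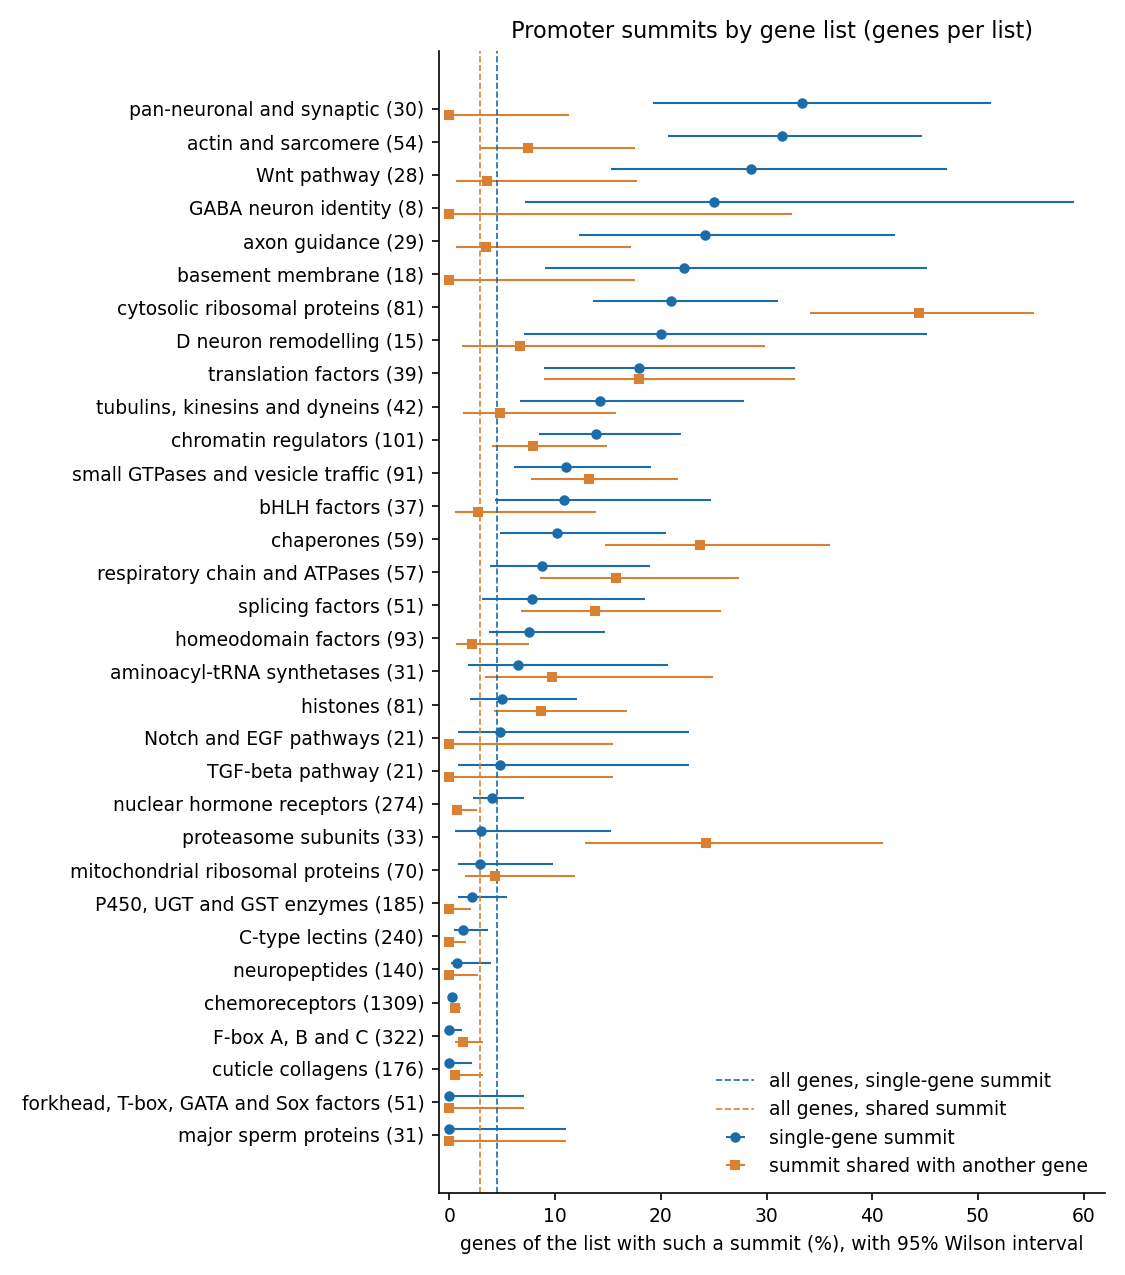
Percentage of the genes in each list (y axis, number of genes in brackets) that had a single-gene summit (blue circles, upper) or a shared summit (orange squares, lower), with 95% Wilson intervals. Dashed lines are the values for all protein-coding genes, 4.47% and 2.93%; the pan-neuronal list is at 33.3% and 0%, and the cytosolic ribosomal protein list at 21.0% and 44.4%.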

How the data were processed

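ChIP-seq was made from 2 labelled biological replicates, which form 1 group. Per the labels and the descriptions deposited with the files, the authors called regions against a control in each replicate and in the pooled alignments, and kept an optimal IDR set in ce11. The aligner and the caller were not given in the sources used here. The deposited signal value of a region is the authors' own and is not scaled between lists. No read counts were analysed, so depth is unknown. The ce10 lists were not used.

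Summits were placed on the Ensembl release 115 annotation of WBcel235 and on the RefSeq sequence of that assembly with Python 3.11.15, numpy 2.4.6 and pandas 2.3.3, and figures were drawn with matplotlib 3.10.9. An overlap was at least 1 bp. Shares have 95% Wilson and differences 95% Newcombe intervals, and no p-values were computed, since peaks are not replicates. The steps were tested on simulated data. The members, the 32 gene lists and the 7 hexamers were chosen with earlier results of these data known. Named genes are the 12 strongest members, the 6 best ranked in replicate 1, genes with 3 or more summits, the 3 strongest of each list (all where 5 or fewer), and the members nearest the window edges. Peaks at near-identical gene copies are uncertain, since reads may map to more than 1 copy. Other genes named in the text were chosen after their values were seen.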

Additional observations from a re-analysis of the deposited data

How the results depend on the processing

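Other windows, annotations, overlaps and peak sets were tried, and peaks overlapped by replicate 1 and autosomes alone were added after seeing the data, as were 2 results, the GAGAGA difference and the share on X. The count was 442 in the stronger part of the set and 291 with replicate 1's overlap, and 758 to 921 in the top 2511 regions of each replicate's list alone (2497 of them nuclear in replicate 1). With windows of genes of any biotype the count was 708. The median position was -190 bp with a window of 500 bp upstream and 100 bp downstream, -511 bp with 2000 and 500 bp, -294 bp in the stronger part, -300 bp with replicate 1's overlap and -327 to -266 bp in lists of 1 replicate. The share on X was 20.6% with the narrow window and 21.4 to 23.9% in lists of 1 replicate. Overlap with replicate 1 was 40.3% in the stronger part and 24.7% with a reciprocal overlap of 50%. GAGAGA was in 36.5% within 50 bp and 26.5 to 55.05% in lists of 1 replicate. ACGCAG was in 33.5% in the stronger part, 20.1% within 50 bp, 35.1% with replicate 1's overlap and 10.7 to 29.6% in lists of 1 replicate. The GAGAGA difference was 12.6 points with windows of genes of any biotype and with the wide window, 12.8 points within 50 bp, 20.6 points in replicate 2's list and -0.102 points in replicate 1's, where the cause was not tested. The difference in replicate 1 overlap kept an interval that included 0 in all 8 alternatives. No paired analysis was possible because the 2 replicates form 1 group. With unknown depth, absence of a region from replicate 1's list does not show absence of binding.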
